A study of Mus musculus with 4 samples.

Results

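Guanylate-binding proteins (GBPs) and immunity-related GTPases (IRGs) are large GTPases of the cell's own defence against intracellular microbes, and 10 of them, Gbp2, Gbp3, Gbp4, Gbp5, Gbp6, Gbp7, Gbp8, Gbp9, Igtp and Irgm1, were followed in virus-specific CD8+ T cells with and without Bcl-3. The gene table held 27998 rows, of which 11 carried these 10 symbols, because Gbp6 stood on 2 Ensembl identifiers that were kept apart. Transcripts were counted for 10 of the 11 rows, and all 10 passed the filter on low counts. The members were chosen by their symbols, and the family was selected on measured values: one of the Gbp6 rows lies lower in Bcl3-/- cells in these libraries. The differences of the members between genotypes are therefore given as a description, with no p-value. Calls of members in the genotype fits are given in the same way, and nothing is read from them.

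Interferons, and interferon-γ above all, switch on GBP and IRG genes through STAT and IRF transcription factors, so that their transcripts serve as a readout of interferon sensing in a cell. The proteins assemble on the vacuoles and membranes around intracellular bacteria and parasites, where GBPs recruit further effectors and help to open the compartment to the cytosol. Bcl-3, the protein missing in the knockout, resembles the IκB inhibitors of NF-κB but works inside the nucleus, where it binds the p50 and p52 subunits.

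The cells came from 2 mixed bone marrow chimeras, each a sub-lethally irradiated Rag1-/- mouse that had received wild-type (WT) marrow of the CD45.1 strain B6.SJL together with Bcl3-/- marrow carrying CD45.2, all on the C57BL/6 background. At day 8 after infection with the Armstrong strain of lymphocytic choriomeningitis virus (LCMV), splenic CD8+ T cells that bind the H-2Db-GP33 tetramer were sorted by congenic marker and captured for 3′ single-cell RNA sequencing, with 1 library for each genotype from each mouse. The libraries are called WT1 and KO1 for the first chimera and WT2 and KO2 for the second chimera. The Bcl3-/- marrow lacked Bcl3 in all lineages, tissue of the host remained, and each genotype came with its own congenic strain, so genotype and strain cannot be told apart. Whether the other cell types in the KO libraries came from the Bcl3-/- marrow or from the host was not tested. Both genotypes of a chimera shared 1 host, and the second chimera is a separate experiment.

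Barcodes with at least 500 genes and no more than 10% mitochondrial UMIs were taken as cells, of which WT1 had 4941, WT2 had 8092, KO1 had 5366 and KO2 had 6494. Each unique molecular identifier (UMI) stands for 1 captured transcript, and the libraries held 21193300, 20358780, 22922219 and 22672343 UMIs, of which 20192770, 19217181, 21813076 and 21525963 lay in cells. The median cell held 3571, 2019, 3620.5 and 2948 UMIs in these libraries, so WT2 was the shallowest library per cell. Pairs of libraries shared between 37 and 63 cell barcodes, at most 1.12% of the smaller library. Levels are in CPM (a gene's UMIs divided by all UMIs of the cells of the same library or class, in parts per 10 to the power of 6), which for 3′ counts do not scale with transcript length. In values summed over cells, fewer cells of a type and less RNA per cell cannot be told apart.

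Bcl3 itself stood at 33.2 CPM in WT1 against 27.6 CPM in KO1, and at 108 CPM in WT2 against 86.6 CPM in KO2. The libraries labelled Bcl3-/- therefore still held Bcl3 transcripts, and the gap between chimeras was larger than the gap between genotypes. Which part of Bcl3 was deleted is not given in the sources used here, and a 3′ tag outside that part checks nothing, so the genotypes below rest on the labels. Markers of CD8 T cells were present, since 5 of the 6 listed genes had a row in the table and all 5 were detected in each library, with summed levels of 5648, 5393, 5971 and 6016 CPM in WT1, WT2, KO1 and KO2.

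The members lie on 3 chromosomes of the mouse genome (build GRCm38, GENCODE annotation). A cluster on chromosome 3, plus strand, holds Gbp5 (chr3:142493978-142522344), Gbp7 (chr3:142530342-142550149), Gbp3 (chr3:142560026-142573209) and Gbp2 (chr3:142620602-142638008). A cluster on chromosome 5, minus strand, holds Gbp8 (chr5:105014150-105139540), Gbp9 (chr5:105077630-105139539), Gbp4 (chr5:105115767-105139586) and Gbp6 (ENSMUSG00000104713, chr5:105270702-105293698). The IRG genes lie on chromosome 11, Irgm1 at chr11:48861968-48871683 on the minus strand and Igtp at chr11:58199556-58207591 on the plus strand.

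The promoters are shown because the interferon motifs are what members of both families have in common there. The RefSeq table (GRCm38.p6) held the promoters of 6 of the 10 members, Gbp2, Gbp3, Gbp5, Gbp7, Igtp and Irgm1. The core of the interferon-stimulated response element (ISRE), searched as a pair of GAAA units with any 2 bases between them and read by IRF factors, was found on either strand within the 250 bases before the start in all 6, against 2.98% of 32851 promoters in the table. The motif TTCNNNGAA, the γ-activated site that STAT dimers read, was found in 3 of the 6 (Gbp5, Gbp7 and Igtp), against 7.02% of all promoters. A κB motif, searched by the name kappaB, was found in 1 of the 6, Gbp5, against 7.25%. The 6 members had 7 promoter entries, and the second entry of Gbp3 held no match to any of the 3 motifs. The counts are thus per member and the shares per entry. A match is a description of these letters and not of a bound site. The stretches below are 200 bases each on the plus strand, with matches to any of the 3 motifs in capitals, at chr3:142496700-142496899 for Gbp5, chr3:142530136-142530335 for Gbp7, chr3:142559826-142560025 for Gbp3 and chr11:58199356-58199555 for Igtp.
Gbp5: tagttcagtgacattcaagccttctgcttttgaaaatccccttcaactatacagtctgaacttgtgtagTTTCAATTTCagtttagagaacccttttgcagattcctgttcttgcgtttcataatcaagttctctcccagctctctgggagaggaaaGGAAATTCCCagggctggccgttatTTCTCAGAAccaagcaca
Gbp7: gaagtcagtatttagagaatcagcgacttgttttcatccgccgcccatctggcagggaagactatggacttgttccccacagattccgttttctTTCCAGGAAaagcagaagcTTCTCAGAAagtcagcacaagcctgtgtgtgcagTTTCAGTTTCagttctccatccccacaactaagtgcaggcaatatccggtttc
Gbp3: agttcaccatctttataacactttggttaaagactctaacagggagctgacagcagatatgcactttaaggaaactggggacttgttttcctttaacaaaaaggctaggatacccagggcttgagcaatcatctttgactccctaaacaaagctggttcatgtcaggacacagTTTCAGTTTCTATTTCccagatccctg
Igtp: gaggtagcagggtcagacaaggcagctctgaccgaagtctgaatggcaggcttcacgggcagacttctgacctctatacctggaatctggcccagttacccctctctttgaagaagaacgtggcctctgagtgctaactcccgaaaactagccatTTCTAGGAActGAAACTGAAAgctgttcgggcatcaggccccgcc
The ISRE match ended 25 bases before the start in Igtp and 44 bases before it in Gbp7. Gbp3 held 2 overlapping matches, at 45 to 36 and 39 to 30 bases before its start, and the match of Gbp5 lay farther away, at 165 to 156 bases. The matches of Gbp2, at 59 to 50 bases, and of Irgm1, at 30 to 21 and 24 to 15 bases, fall in bases annotated as exon and are not printed.

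Reads of near-identical family members can be lost or swapped, which matters most for Gbp6. Of the 808 stretches of 98 bases (the read length) in the last 500 bases of Gbp6 transcripts, 662 (81.9%) also occur in another gene, all of them in the row with the second Gbp6 identifier (ENSMUSG00000079362, named Gm43302 in GENCODE, chr5:105214907-105293695) and 261 of them in Gbp10. All 403 such stretches of that second row, and all 806 of Gbp10, also occur in another gene. A read from these ends could thus not be told apart from one of another gene. The second row had 0 UMIs in all 4 libraries, where 3 UMIs over all of them would have been 0.0363 CPM. Gbp10 had 3, 21, 4 and 5 UMIs in WT1, WT2, KO1 and KO2. Neither the 0 nor these low counts show that the transcripts were absent or rare. The Gbp6 values below are therefore those of the reads that the counting could place on ENSMUSG00000104713. For Gbp4, 5.14% of the stretches were shared with other genes, and for the other members none, although exons of Gbp4, Gbp8 and Gbp9 overlap each other and those of Igtp overlap Irgm2. Exons of both Gbp6 rows overlap as well.

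Igtp was the most abundant member. The GTPase it encodes, also known as Irgm3, protects other IRG proteins from premature activation. Its level was 269 CPM in WT1, 320 CPM in WT2, 167 CPM in KO1 and 200 CPM in KO2. Both KO libraries lay below both WT libraries, with means of 295 ± 35.6 CPM in WT and 184 ± 23.5 CPM in Bcl3-/- (SD, n = 2), and the log2 ratio of KO to WT was -0.69 in the first chimera and -0.68 in the second chimera. Irgm1, the regulator that protects host membranes from IRG effectors, was among the least abundant members, at 6.04, 6.76, 7.24 and 12.6 CPM in WT1, WT2, KO1 and KO2. It was the only member that lay higher in the KO library of each chimera, with KO2 standing apart from the other 3 libraries.

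Among the GBPs of chromosome 3, Gbp2, which is prenylated and reaches pathogen-containing vacuoles, had the highest level, at 164, 202, 147 and 162 CPM in WT1, WT2, KO1 and KO2. KO2 fell just short of WT1, so the genotypes stood apart by a margin far smaller than the spread within each. Gbp7 was counted at 117 CPM in WT1, 156 CPM in WT2, 115 CPM in KO1 and 133 CPM in KO2, and its genotypes overlapped. Gbp3 was counted at 56.4, 53.0, 44.7 and 53.8 CPM, also with overlap, and its ratio was negative in the first chimera (-0.33) and slightly positive in the second chimera (0.02). Gbp5, a prenylated GBP that acts in inflammasome assembly, was low, at 8.52, 9.78, 5.82 and 7.76 CPM, with both KO libraries below both WT libraries.

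Among the GBPs of chromosome 5, Gbp6 gave the pattern for which the family was chosen. It was counted at 42.6 CPM in WT1 (861 UMIs) and 51.7 CPM in WT2 (994 UMIs), against 15.7 CPM in KO1 (342 UMIs) and 13.3 CPM in KO2 (286 UMIs). The KO mean was 14.5 ± 1.69 CPM and the WT mean 47.2 ± 6.42 CPM (SD, n = 2), so the Bcl3-/- cells held 30.7% of the WT level. The ratio was lower in the second chimera (log2 -1.96) than in the first chimera (log2 -1.44). Gbp4 was counted at 90.1, 119, 67.1 and 80.4 CPM in WT1, WT2, KO1 and KO2, and Gbp8 at 27.2, 33.0, 21.7 and 24.9 CPM. For both, the KO libraries lay wholly below the WT libraries, with log2 ratios between -0.56 and -0.33 in the chimeras. Gbp9 was counted at 27.5, 40.6, 20.95 and 27.7 CPM, so that KO2 overlapped WT1 while each KO library was below the WT library of its own chimera.

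**Figure D1:**
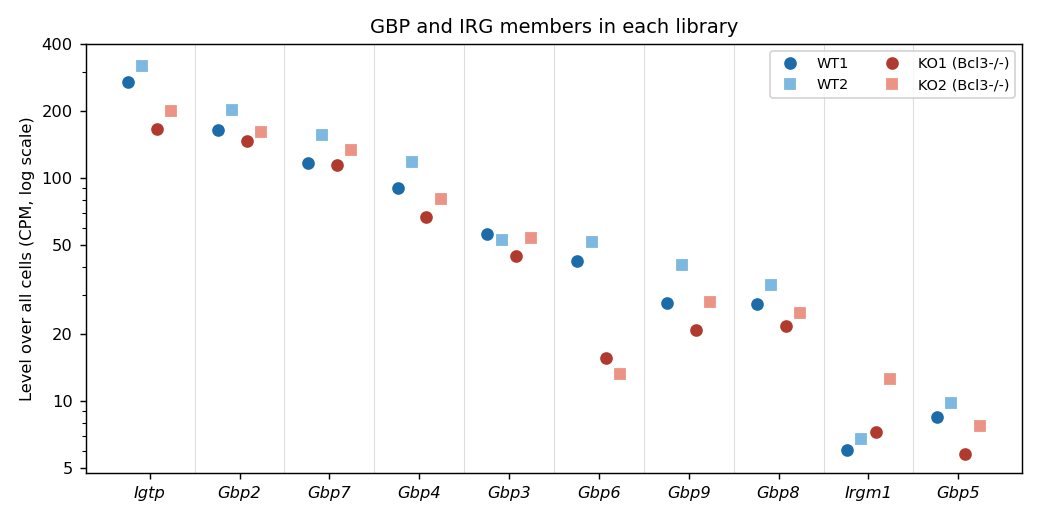
The level of each member over all cells of a library, in CPM on a log scale, with 1 point for each of the 4 libraries and members in order of their mean. The red KO points of Gbp6, at 15.7 and 13.3 CPM, sit far below the blue WT points at 42.6 and 51.7 CPM, while for Gbp7 and Gbp3 the KO2 point lies between the WT points and the KO1 point below them, at 115 and 44.7 CPM.

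In the edgeR fit of genotype over 11566 genes, 42 genes were called at an adjusted p of 0.05 (0.363% of those tested), 33 higher and 9 lower in Bcl3-/- (0.0778% lower). Gbp6 was the only member among the genes called lower, with a log2 difference of -1.71 ± 0.14 (SE). The differences of the other members were -0.70 ± 0.11 for Igtp, -0.52 ± 0.13 for Gbp4, -0.50 ± 0.18 for Gbp9, -0.45 ± 0.17 for Gbp5 and -0.39 ± 0.11 for Gbp8. They were closer to 0 for Gbp2 (-0.26 ± 0.11), Gbp3 (-0.17 ± 0.10) and Gbp7 (-0.15 ± 0.13), and 0.61 ± 0.24 for Irgm1. Thus 9 of 10 members lay below 0, with a median of -0.42 against 0.0074 over all genes tested. Several of these rested on single libraries. Without WT2 the difference of Gbp9 was -0.23, that of Gbp2 -0.14 and that of Gbp7 0.02, which left 8 members below 0, and without WT1 they were -0.74, -0.38 and -0.32. Without KO1 Gbp3 was at -0.09 and Irgm1 at 0.91, without KO2 Irgm1 was at 0.21, and without WT1 Gbp3 was at -0.10. As the members were chosen with this contrast known, nothing is read from these counts. In the same terms, 8 of 10 members were lower in the KO library of both chimeras against 31.1% of all genes tested, and 6 of 10 had both KO libraries below both WT libraries against 18.8%.

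When the fit kept the chimera as a block, so that each KO library was set against the WT library from its own mouse, 9.65% of all genes were called (4.84% lower) and 6 members were among those lower, Gbp2, Gbp4, Gbp6, Gbp8, Gbp9 and Igtp. DESeq2 called 3 members lower, Gbp4, Gbp6 and Igtp, where 0.648% of all genes were called lower. The members were chosen with this contrast known, so nothing is read from these calls.

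**Figure D2:**
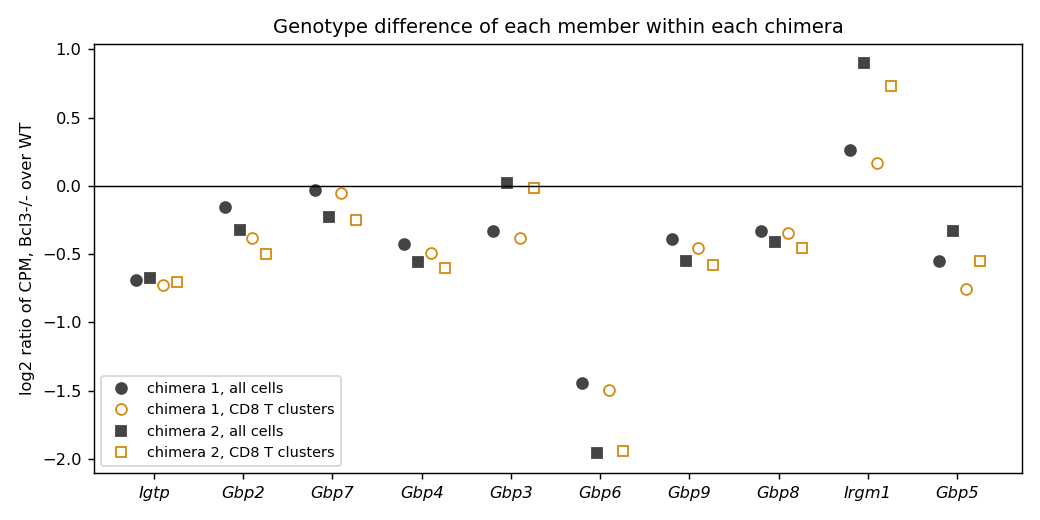
The log2 ratio of Bcl3-/- to WT for each member within each chimera, over all cells (filled) and over the CD8 T clusters alone (open), with 0 marking equal levels. Gbp6 lies between -1.96 and -1.44, Igtp near -0.7 in both chimeras, and Irgm1 is the only member above 0 in both.

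The sorted libraries held cells other than CD8 T cells, and some of these make members strongly. Cells were clustered within each library with the GBP and IRG genes taken out of the clustering genes, and a cluster was called after a cell type or state where 3 or more markers of a list reached 2-fold over the remaining cells of the library in 10% or more of its cells, with 1 or more of the list also standing among the 10 leading genes of the cluster. Clusters resembling B cells, plasma cells, monocytes and macrophages, or neutrophils made up 5.53%, 3.29%, 6.62% and 5.96% of the cells in WT1, WT2, KO1 and KO2. The neutrophil-like clusters, found in KO1 and KO2 only among clusters of at least 1% of a library, had the highest Gbp2 levels measured, 924 CPM in KO1 and 876 CPM in KO2. The 8 listed neutrophil genes were all detected in every library and summed to 1620, 1058, 2831 and 3183 CPM, with S100a8 as the most abundant (747, 512, 1328 and 1455 CPM), so they were higher in both KO libraries. Their own part in the differences over all cells was not tested, since the restriction to CD8 T clusters below leaves out all other cell types together. The other cell types supplied 15.9% and 16.7% of all Gbp2 UMIs in WT1 and WT2, and 28.6% and 28.0% in KO1 and KO2, whereas they supplied between 3.82% and 7.80% of Igtp UMIs and between 4.93% and 9.94% of Gbp6 UMIs.

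The other marker lists were summed in the same way. The 9 monocyte and macrophage genes summed to 1819, 2168, 1683 and 1740 CPM in WT1, WT2, KO1 and KO2 (Lyz2 most abundant), and the 8 B cell genes to 208, 212, 254 and 237 CPM (Cd79b most abundant). The 6 plasma cell genes summed to 1022, 1137, 869 and 1158 CPM (Jchain most abundant), the 5 CD4 T genes to 124, 126, 96.9 and 94.6 CPM (Icos most abundant), and the 5 NK genes to 175, 190, 233 and 198 CPM (Tyrobp most abundant, which monocytes also make). The 7 erythroid genes summed to 73.8, 108, 14.9 and 239 CPM, so that KO1 was lowest and KO2 highest. For these lists the part in the members' differences over all cells was not tested beyond leaving out the clusters.

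Over the CD8 T clusters alone, meaning all clusters of at least 1% of a library not named after another cell type, which held 93.6%, 95.4%, 92.6% and 93.3% of the cells in WT1, WT2, KO1 and KO2, Gbp6 was counted at 42.7, 52.5, 15.2 and 13.6 CPM (log2 difference -1.73 ± 0.13, SE). Igtp was counted at 276, 329, 167 and 201 CPM (-0.73 ± 0.12). Gbp2 was at 147, 180, 113 and 127 CPM (-0.45 ± 0.11), below its level over all cells in each library, and both KO libraries lay well below both WT libraries. Gbp4 was at 89.8, 121, 63.9 and 79.8 CPM, Gbp9 at 27.6, 42.1, 20.1 and 28.1 CPM, and Gbp8 at 26.3, 33.4, 20.7 and 24.4 CPM. Gbp5 was at 7.64, 9.03, 4.52 and 6.17 CPM, Gbp7 at 119, 160, 115 and 135 CPM, Gbp3 at 54.5, 50.2, 41.8 and 49.6 CPM, and Irgm1 at 5.63, 6.74, 6.33 and 11.2 CPM. Here 9 members were lower in the KO library of both chimeras against 32.2% of all genes tested, and 7 had both KO libraries below both WT libraries against 19.0%. As over all cells, nothing is read from these counts. The edgeR fit called 1 member lower, Gbp6, where 0.0541% of all genes were called lower, and with the chimera as a block it called 7 members lower, where 6.7% of all genes were. DESeq2 called 4 members lower, where 0.532% of all genes were. Nothing is read from these calls either.

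The 10 members together made up 809, 991, 612 and 715 CPM over all cells of WT1, WT2, KO1 and KO2, a mean of 900 ± 129 CPM in WT and 664 ± 73.0 CPM in Bcl3-/- (SD, n = 2). Igtp gave 33.3% and 32.3% of this sum in WT1 and WT2, and 27.3% and 28.0% in KO1 and KO2. The share of Gbp6 was 5.27% and 5.22% in WT and 2.56% and 1.86% in Bcl3-/-, while Gbp2 made up 20.3%, 20.4%, 24.03% and 22.6% of the sum. Barcodes of at most 50 UMIs, which hold free RNA rather than cells, carried the members at 942, 1062, 760 and 901 CPM, above the cells and with the same order between the genotypes of each chimera. For Gbp6 the free RNA level was 28.0, 60.2, 16.0 and 8.32 CPM. Its part in the levels measured in cells was not tested.

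The share of cells with a transcript was compared at equal depth. To compare libraries of unequal depth, 1000 UMIs were drawn at random from each cell, and the 25, 223, 15 and 19 cells with fewer were left out. At that depth a UMI of any member was found in 51.4% of CD8 T cluster cells in WT1 (exact 95% interval 49.97% to 52.9%), 58.0% of those in WT2 (56.9% to 59.1%), 41.6% of those in KO1 (40.2% to 43.0%) and 45.7% of those in KO2 (44.5% to 47.0%). The intervals, which cover counting error only, did not overlap between genotypes, and the means were 54.7 ± 4.65% in WT and 43.7 ± 2.94% in Bcl3-/- (SD, n = 2). Igtp was found in 22.8%, 26.8%, 15.1% and 17.1% of cells in WT1, WT2, KO1 and KO2, and Gbp6 in 4.17%, 5.21%, 1.53% and 1.26%. Without thinning Gbp6 was found in 14.0%, 10.6%, 5.45% and 4.06% of cells, and a UMI of any member in 88.0%, 79.9%, 82.0% and 81.5%, so that at the cells' own depths WT2, the shallowest library, lay below both KO libraries. Gbp2 at equal depth was found in 13.0%, 15.8%, 10.45% and 11.1% of cells, and Irgm1 in under 1% in each library. In the B cell-like clusters Igtp was found in 9.52%, 19.6%, 11.2% and 11.02% of cells at that depth. No cell type among these is known to lack the family, so the free RNA levels above stand as the background.

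**Figure D3:**
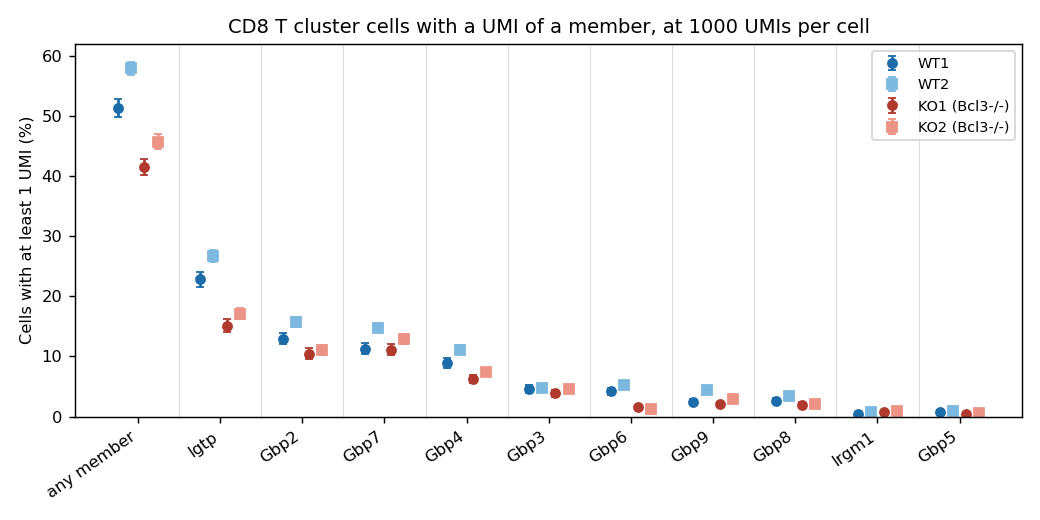
The percentage of CD8 T cluster cells with at least 1 UMI of any member and of each member after thinning to 1000 UMIs per cell, with exact 95% binomial intervals. Both KO points lie below both WT points for any member, Igtp, Gbp2, Gbp3, Gbp4, Gbp5, Gbp6 and Gbp8, and the genotypes overlap for Gbp7, Gbp9 and Irgm1. The members were chosen with this contrast known and no share over all genes is given at this depth, so nothing is read from this.

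Of the 7 classes of clusters with at least 50 cells in every library, the members had their highest mean in the interferon-stimulated-like clusters, which were named from type I interferon-stimulated genes such as Ifit1 and Isg15. The summed level there was 2130, 2589, 888 and 1352 CPM in WT1, WT2, KO1 and KO2, a mean of 1740 ± 763 CPM (SD, n = 4). Monocyte and macrophage-like clusters followed with 1188 ± 101 CPM, then B cell-like clusters with 813 ± 149 CPM, unnamed CD8 T clusters with 761 ± 205 CPM, clusters led by memory-precursor and naive genes with 759 ± 84.4 CPM, terminal effector-like clusters with 639 ± 186 CPM and cycling clusters with 587 ± 111 CPM. Of the neighbours in this order, the ranges over the 4 libraries separated only for the monocyte and macrophage-like clusters against the B cell-like clusters. The neutrophil-like clusters, present in 2 libraries, held 1793 CPM in KO1 and 1704 CPM in KO2, above every other class of those libraries. These levels are a description, since the clusters come from the same cells. In the monocyte and macrophage-like clusters, between 44.5% and 54.2% of cells also held Cd8a, no doublet caller was run, and these cells had median depths of 5448.5 to 6921.5 UMIs.

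The members differed in which of the 7 classes was highest. Igtp, Gbp4, Gbp6 and Gbp7 were highest in the interferon-stimulated-like clusters of all 4 libraries. Igtp reached 652, 827, 248 and 402 CPM there in WT1, WT2, KO1 and KO2, and Gbp4 reached 284, 325, 109 and 181 CPM. Gbp2 was instead highest in the monocyte and macrophage-like clusters of 3 libraries, with 431, 564, 697 and 612 CPM in WT1, WT2, KO1 and KO2, and in WT1 in the interferon-stimulated-like clusters (473 CPM), against 132, 152, 73.6 and 85.0 CPM in the terminal effector-like clusters. Gbp3 and Gbp5 also had their highest mean in the monocyte and macrophage-like clusters, at 104 ± 11.7 CPM and 29.0 ± 3.69 CPM (SD, n = 4). Irgm1 was lowest in the terminal effector-like clusters of all 4 libraries.

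**Figure D4:**
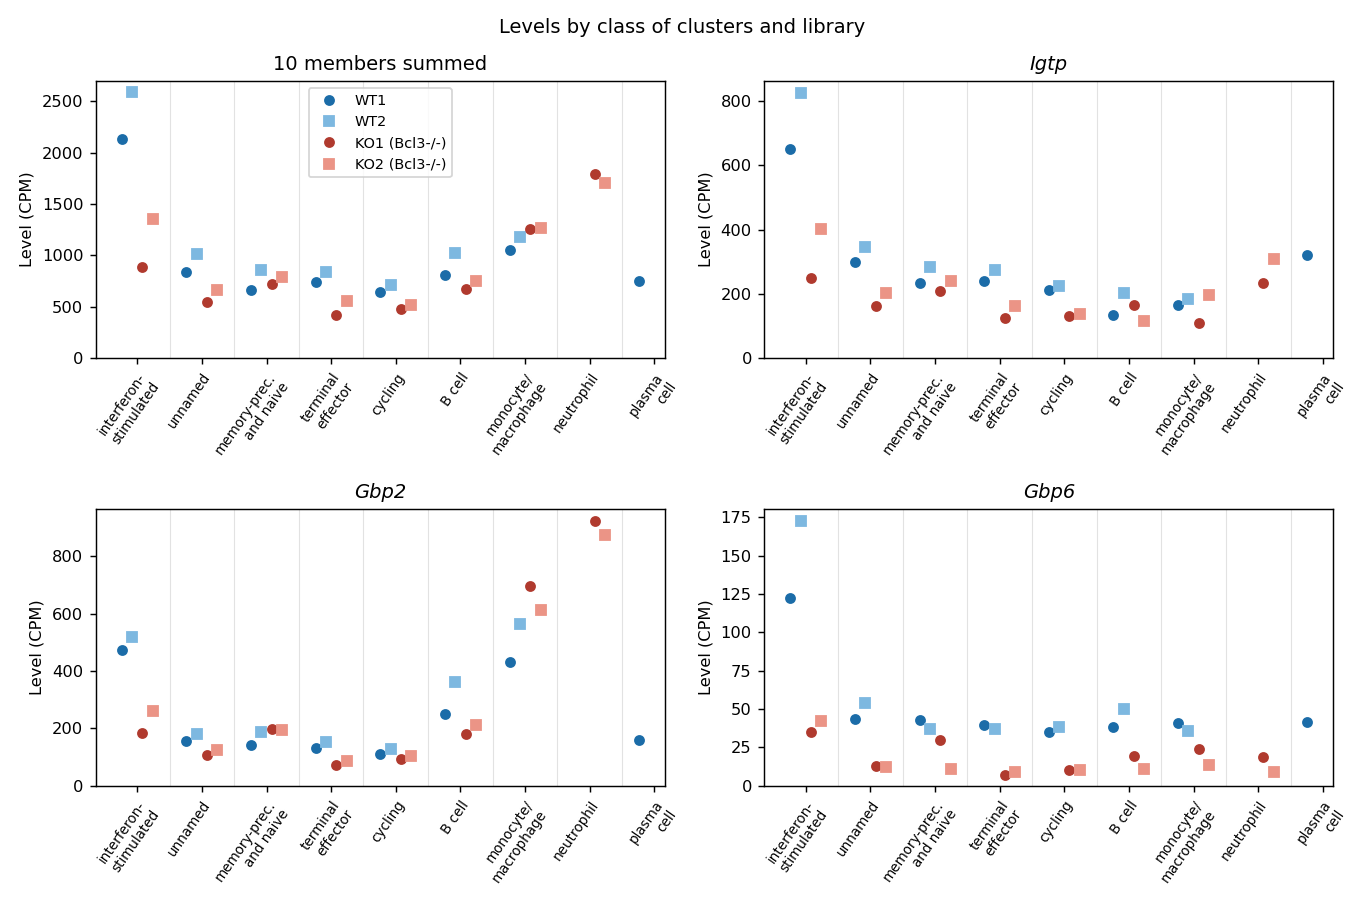
Levels of the 10 members summed and of single members in each class of clusters, in CPM, with 1 point for each library. The summed level in the interferon-stimulated-like clusters spans 888 to 2589 CPM, with both WT libraries above both KO libraries.

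Gbp6 lay lower in the KO library than in the WT library of both chimeras in each of the 7 classes. In the interferon-stimulated-like clusters it was counted at 122, 172, 35.1 and 42.3 CPM in WT1, WT2, KO1 and KO2, a KO mean of 26.3% of the WT mean. In the unnamed CD8 T clusters it was at 43.5, 53.9, 13.1 and 12.2 CPM (26.0%), in the terminal effector-like clusters at 39.3, 36.9, 6.58 and 9.17 CPM (20.7%) and in the cycling clusters at 35.2, 37.9, 10.2 and 10.1 CPM (27.7%). In these 4 classes no KO library came near a WT library. The unnamed class mixed clusters of different kinds in several libraries. In KO1 it held a cluster of 690 cells led by Cx3cr1, Klrg1, Gzma, Zeb2 and S1pr5, one of 742 cells led by Tcf7 and Il7r, and one of 586 cells led by hemoglobin genes. In WT1 it held 1031 cells with Klrg1 and Cx3cr1 among the leading genes and 559 cells led by Il7r, and in KO2 1416 cells led by Cd7, Il7r and Tcf7. With the family kept among the clustering genes, the terminal effector-like clusters made up 21.8% of KO1 cells in place of 10.7%, and Gbp6 in them was at 27.8, 36.3, 7.36 and 7.99 CPM in WT1, WT2, KO1 and KO2. The gap was smaller in the clusters led by memory-precursor and naive genes, at 42.6, 36.9, 29.8 and 11.1 CPM (51.4%), and in the monocyte and macrophage-like clusters, at 40.9, 35.6, 23.9 and 13.1 CPM (48.4%). In the clusters led by memory-precursor and naive genes the KO values rested on 12 and 7 UMIs. With 30 principal components Gbp6 stood there at 37.6%, against 53.5% in the interferon-stimulated-like clusters, so the order of these classes depended on the clustering. Of the clusters led by memory-precursor and naive genes, the one in KO1 alone had Cd4 among its 10 leading genes, and Cd8a was found in 77.1%, 59.8%, 57.1% and 61.8% of their cells in WT1, WT2, KO1 and KO2, and the part of CD4 T cells in the KO1 value was not tested. In the B cell-like clusters it rested on 13, 15, 9 and 4 UMIs (34.1%). Whether the classes differ in this ratio was not tested.

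All members were counted in the same way by class, against all genes with a UMI in the class in every library. In the interferon-stimulated-like clusters 9 of 10 members were lower in the KO library of both chimeras (24.2% of all genes), in the unnamed clusters 8 (29.2%), in the cycling clusters 7 (23.98%), in the terminal effector-like clusters 7 (28.0%) and in the B cell-like clusters 5 (28.5%). In the clusters led by memory-precursor and naive genes 3 members were (27.2%), as in the monocyte and macrophage-like clusters (22.1%). Differences between classes in these counts were not tested. The edgeR fits within classes called 5 of 10 members lower in the interferon-stimulated-like clusters (Gbp2, Gbp4, Gbp6, Gbp9 and Igtp), where 0.776% of all genes were called lower, and 3 of 9 in the terminal effector-like clusters (Gbp2, Gbp6 and Igtp), against 0.216%. They called 2 of 10, Gbp6 and Igtp, in the cycling clusters (0.0866% of all genes) and in the unnamed clusters (0.0674%). No member was called in the clusters led by memory-precursor and naive genes (0 of 8, with 0.0309% of all genes called lower), in the B cell-like clusters (0 of 7, 0.478%) or in the monocyte and macrophage-like clusters (0 of 10, 0.142%). With the chimera as a block, the counts in these 3 classes were 0, 0 and 1, where 0.926%, 0.478% and 1.69% of all genes were called lower. The block also raised the members called lower to 8 in the interferon-stimulated-like clusters (3.26% of all genes), 7 in the unnamed (3.45%), 4 in the terminal effector-like (1.09%) and 3 in the cycling clusters (1.79%). As the members were chosen with the genotype contrast known, nothing is read from these calls.

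The interferon-stimulated-like clusters were themselves unlike in the libraries. In WT1, WT2, KO1 and KO2 they held 118, 312, 610 and 410 cells (2.39%, 3.86%, 11.4% and 6.31%), and the 10 genes that name them summed to 6011, 8118, 1581 and 3637 CPM. Ifit1 alone was at 913, 1329, 114 and 500 CPM. In KO1 only 4 of these 10 genes passed the marker rule, against 10 in WT1 and 9 in WT2 and KO2, so the member levels moved with the marker levels of the class. With 30 principal components in place of 15, the class was far more alike in the libraries, with 2.51%, 3.66%, 2.11% and 2.45% of their cells and 9 or 10 of the markers passing in each. The summed members then stood at 2103, 2654, 1668 and 1949 CPM, a KO mean of 76.0% of the WT mean in place of 47.5%. Gbp6 stood at 132, 178, 86.8 and 79.0 CPM, or 53.5% in place of 26.3%, and both KO libraries were still below both WT libraries. In that setting, chosen for the fit after the data were seen, edgeR called 0 of 9 members in the class (0.0413% of all genes were called lower), so the 5 calls above do not hold under this clustering. In the same setting it called 2 members in the terminal effector-like (0.185% of all genes) and 2 in the cycling clusters (0.0952%), Gbp6 and Igtp in each, and Gbp6 alone in the unnamed clusters (0.0192%).

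The genes whose levels followed the summed members most closely were sought over profiles of each class in each library. Over 31 profiles of all classes, the genes of highest Pearson's r of log2(CPM + 1) included Rtp4 at 0.91, Samhd1 at 0.91, Trafd1 and Trim30a at 0.88, Zbp1 at 0.86, and Irf7, Ifit1, Isg15 and Ifit3 at 0.85. Over the 20 profiles of CD8 T classes they included Rtp4 at 0.98, Bst2 at 0.97, and Parp9 and Irf7 at 0.96. The profiles share libraries and depth, so these values are a description. Of the members themselves, set each against the sum of the others over the CD8 T profiles, Gbp4 had 0.98, Igtp 0.97 and Gbp2 0.95, whereas Irgm1 had 0.43.

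The other genes of the interferon pathway were counted from the same genotype fit in 9 lists. Of 108 tested, edgeR called none, while 33 had an unadjusted p under 0.05 and DESeq2 called 8 (1 higher and 7 lower in Bcl3-/-). Among the ligands and receptors (5 genes tested, 2 above and 3 below 0, median log2 difference -0.14), Ifng was at 54.1, 64.3, 49.2 and 59.7 CPM in WT1, WT2, KO1 and KO2 (-0.14), and Ifngr1, which encodes the ligand-binding chain of the interferon-γ receptor, at 580, 595, 448 and 495 CPM (-0.34 ± 0.10). With the block 1 gene of this list was called, Ifngr1, as lower. Of the 12 JAK, STAT and IRF factors, 5 lay above and 7 below 0 (median -0.06), with Irf7 at 116, 145, 104 and 110 CPM (-0.30). With the block Irf7 was called lower, and Jak1, at 316, 347, 379 and 415 CPM (0.24), and Irf2 were called higher. Irf1, the factor that follows interferon-γ, was at 126, 139, 116 and 139 CPM (-0.07).

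Among the targets, 25 of 27 type I interferon-stimulated genes lay below 0 in Bcl3-/- cells, with a median of -0.31, where 48.5% of all genes tested lay below 0. With the block 10 were called lower and none higher, where 4.84% of all genes were called lower and 4.81% higher. Isg15 was at 93.5, 123, 69.3 and 83.6 CPM in WT1, WT2, KO1 and KO2 (-0.52 ± 0.13), Bst2 at 150, 164, 117 and 129 CPM (-0.37) and Ifi203 at 190, 217, 194 and 209 CPM (-0.03). This list shares genes with the markers that name the interferon-stimulated-like clusters. Of 16 other interferon-γ targets tested, most of them antigen-processing genes, 10 lay below 0 (median -0.16), with 7 called lower and 1 higher, Tap2, under the block. Over the CD8 T clusters alone 12 of these 16 lay below 0 (median -0.24), and 26 of the 27 type I genes did (median -0.34). B2m, the light chain of MHC class I, was at 5562, 5353, 5045 and 5451 CPM (-0.07), and Psmb8, an immunoproteasome subunit, at 1436, 1548, 1240 and 1311 CPM (-0.24). Lower levels and larger differences were found for the chemokine genes Cxcl10, at 8.72, 12.1, 4.40 and 5.99 CPM (-1.02 ± 0.20), and Cxcl9, at 14.3, 18.9, 8.30 and 9.71 CPM (-0.90 ± 0.16). These were the largest in size of the list, both KO libraries lay below both WT libraries for each, and both were called with the block but not without it (edgeR adjusted p = 0.117 and 0.0973). The chemokine levels are over all cells, and the part of other cell types in them was not tested.

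The list of other family GTPases had 14 tested genes, 13 of them of the GBP and IRG families and their relatives and Mx1 of the dynamin-like Mx family, with 7 above and 7 below 0 (median -0.004). Without Mx1, 7 lay above and 6 below 0 (median 0.05). Over the CD8 T clusters alone 11 genes of the list were tested, with 5 above and 6 below 0 (median -0.096). Ifi47, an IRG, was at 308, 394, 244 and 298 CPM in WT1, WT2, KO1 and KO2 (-0.39 ± 0.13) and Irgm2 at 15.7, 18.4, 14.2 and 19.0 CPM (-0.06), while Tgtp2 was at 16.9, 13.5, 13.8 and 34.6 CPM (0.63), with KO2 apart from the others. The family gene 9930111J21Rik1 had a difference of 1.39 ± 0.33 and was called higher with the block, at levels no higher than 2.14 CPM, and 3 genes of the list were called lower with it.

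The remaining lists concern the machinery around the members. Of 6 prenylation and processing enzymes, which lipid-modify several GBPs, 2 lay above and 4 below 0 (median -0.11). Of 10 autophagy conjugation partners, 7 lay above 0 (median 0.04), with Gabarap at 0.07 and Atg3 at -0.06. Of 11 inflammasome and effector partners, 4 lay above 0 (median -0.02), with Casp1 at 0.11 and Pycard at -0.06. Of 7 negative regulators of the pathway, 3 lay above 0 (median -0.03), and Usp18, at 57.2, 60.9, 43.9 and 47.7 CPM (-0.38 ± 0.08), was the only gene of these 4 lists called with the block.

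**Figure D5:**
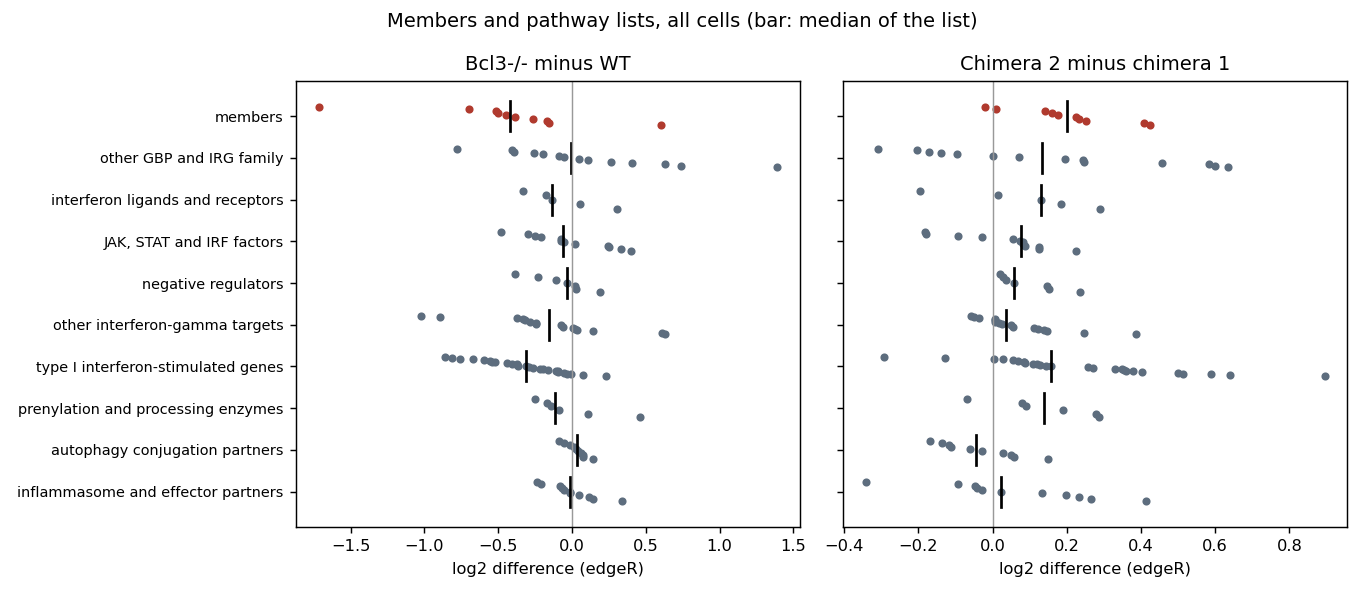
The edgeR log2 difference of each tested gene in the members and in 9 pathway lists, for Bcl3-/- minus WT on the left and the second chimera minus the first chimera on the right, with a bar at the median of each list. On the left the type I interferon-stimulated genes lie mostly below 0 (median -0.31) and the autophagy partners around 0 (median 0.04).

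The 2 chimeras were a comparison that the choice of the members did not use. In the fit with genotype as a term, 366 of 11566 genes were called, 114 higher and 252 lower in the second chimera, and 0.986% of all genes were called higher. Gbp9 was the only member called, with a log2 difference of 0.41 ± 0.096 (SE, edgeR adjusted p = 0.0331) and a higher level in the second chimera in both genotypes. The differences of Irgm1 (0.42, edgeR adjusted p = 0.277), Gbp4 (0.25, adjusted p = 0.0909), Gbp7 (0.23, adjusted p = 0.126) and Igtp (0.18, adjusted p = 0.209) did not pass the test. With total-count scaling, and with no filter on low counts, Gbp4 and Gbp7 were called higher along with Gbp9, where 1.82% and 1.65% of all genes were. Gbp6 was at -0.02 (edgeR adjusted p = 0.968), and the median of the 10 members was 0.20 against 0.014 over all genes. The call of Gbp9 was lost under 9 alternatives, among them each of the 4 fits that left out a library, which also dropped the genotype term, and DESeq2 (adjusted p = 0.626). Animal, capture and depth cannot be told apart in this comparison. Both libraries of a chimera came from the same mouse and were treated as replicates of it. The p-values therefore do not measure the spread between animals.

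Some type I interferon-stimulated genes were also higher in the second chimera. Of 27 tested, edgeR called 4 higher and none lower, and 25 lay above 0 (median 0.16), while DESeq2 called 2 higher, Ifit1 and Ifi27l2a, where it called 0.259% of all genes higher. Ifit1 was at 38.8 CPM in WT1, 78.2 CPM in WT2, 27.8 CPM in KO1 and 53.1 CPM in KO2 (0.89 ± 0.081, adjusted p = 2.18e-05). Ifi27l2a was at 576, 1042, 413 and 616 CPM (0.64, edgeR adjusted p = 0.000517), Rtp4 at 74.5, 108, 54.3 and 72.6 CPM (0.40, adjusted p = 0.00741) and Ifit3 at 40.9, 71.1, 29.3 and 37.7 CPM (0.51, adjusted p = 0.0144). The type I receptor chain Ifnar1, at 57.9, 74.3, 51.5 and 66.8 CPM, was called as well (0.29, edgeR adjusted p = 0.0487), as was 1 of the 14 other family genes tested. For each of these named genes the second chimera exceeded the first chimera in both genotypes, while in each chimera the KO library lay below the WT library. Here too, the p-values rest on libraries of the same mouse and do not measure the spread between animals.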

How the data were processed

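The deposited files were the authors' gene by barcode matrices of raw UMI counts, made with Cell Ranger 2.2.0 and bcl2fastq 2.17 on mm10 per the submitters' notes, from 10x 3′ libraries read over 98 bases, with no normalization. A barcode counted as a cell where it held 500 genes or more and mitochondrial UMIs were 10% or less, the filter of the study's methods. The members, gene lists and rules were chosen with earlier results of these data known.

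UMIs were summed per library, over all cells, over the CD8 T clusters and within classes, and tested with edgeR 4.0.16 (quasi-likelihood, TMM, filterByExpr, Benjamini-Hochberg at 0.05 over all genes tested, R 4.3.3), with DESeq2 1.42.0 as an alternative. Clusters came from Seurat 5.3.0 within each library (2000 variable genes, 15 principal components, 20 neighbours, resolution 0.8), leaving out the GBP and IRG genes, and clusters under 1% were not used in classes. Fits were tested on simulated counts first. Chromosome positions came from GENCODE vM21, in which 27645 of 27998 identifiers were found, and promoters from RefSeq.

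The text names all members, from each pathway list the genes called and up to 4 with the most UMIs, and the 10 genes with the highest likeness over profiles of at least 10 CPM. Some genes that these rules select are counted in the lists but are not reported here by name. Libraries of 1 number come from 1 mouse per the labels, so the numbers pair the libraries. As a check, the difference between the chimeras in WT and that in Bcl3-/- had r = 0.291 over 6863 genes above 10 CPM. Alternatives changed the tool, the scaling, the filters on genes and cells, the depth per cell, the clustering, the block and the libraries used. Depth limits values of a few UMIs, and all intervals cover counting error only.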

Additional observations from a re-analysis of the deposited data

Results flagged for a closer look

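In 5 cases a member lay higher in the KO library of both chimeras in a class, while it lay lower in both chimeras in other classes. The difference between the classes was not tested in any of them. In the monocyte and macrophage-like clusters 4 of 10 members were higher in both chimeras, against 32.2% of all genes. The counts were 2 in the clusters led by memory-precursor and naive genes (28.4% of all genes) and 2 in the cycling clusters (33.3%), so nothing is read from them. In the monocyte and macrophage-like clusters the Bcl3-/- mean of Gbp2 was 132% of the WT mean (654 against 497 CPM), that of Gbp3 118% (112 against 95.3 CPM) and that of Gbp5 121% (31.8 against 26.2 CPM). Gbp2 also lay at 119% in the clusters led by memory-precursor and naive genes (196 against 164 CPM), although it was lower in both chimeras in the B cell-like, cycling, interferon-stimulated-like, terminal effector-like and unnamed clusters. Gbp3 was lower in both chimeras in the B cell-like, cycling and interferon-stimulated-like clusters. Gbp5 lay at 109.9% in the cycling clusters (4.77 against 4.34 CPM), on 29, 10, 15 and 12 UMIs in WT1, WT2, KO1 and KO2. Its levels there were nearly equal in the first chimera, at 5.83 CPM in WT1 and 5.88 CPM in KO1. Gbp5 was lower in both chimeras in the interferon-stimulated-like and unnamed clusters.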

How the results depend on the processing

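The mean level of the summed members in a class moved by less than the spread between the 4 libraries under the other clusterings. These kept the family among the clustering genes, used resolution 0.4 or used 30 principal components. At resolution 0.4 the interferon-stimulated-like and terminal effector-like classes were each missing from a library. The spread includes both genotypes and so is a wide bound. In the interferon-stimulated-like clusters the mean level was 1740 CPM, 2094 CPM with 30 principal components and 1457 to 2024 CPM without each library in turn. Gbp6, the only member called in the main genotype fits over all cells and over the CD8 T clusters, kept its sign. The members not called were not covered by that check. Gbp7 turned positive when a library was left out, reaching 0.024 over all cells and 0.022 over the CD8 T clusters. Gbp6 stayed between -1.89 and -1.55 (log2) over all cells, and between -1.86 and -1.61 over the CD8 T clusters, when each library was left out. The counts of genes moved more, and the causes were not tested. The genotype count over all cells, 42, was 209 with DESeq2, 80 with total-count scaling and 40 to 228 without each library in turn. Over the CD8 T clusters the count, 30, was 171 with DESeq2, 6 with no filter on low counts, 17 at 5% mitochondrial UMIs at most and 38 to 140 without each library. The chimera count, 366, was 147 with DESeq2, 700 with no filter, 233 for cells of at least 800 genes, 189 after thinning, 3 without the genotype term and 5 to 9 without each library, in fits that dropped the genotype term because 3 libraries left no spread to estimate with it.

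The replicate block, which pairs the libraries of a mouse, raised the count to 1116 over all cells and to 1482 over the CD8 T clusters, and the members called lower to 8 in the interferon-stimulated-like, 7 in the unnamed, 4 in the terminal effector-like, 3 in the cycling and 1 in the monocyte and macrophage-like clusters. Without each library in turn, the members called lower ranged over 1 to 7 in the interferon-stimulated-like clusters (0.0878% to 1.94% of all genes), 1 to 5 in the unnamed (0.113% to 1.16%), 1 to 3 in the terminal effector-like (0.123% to 0.565%), 1 to 2 in the cycling (0.115% to 0.660%), 0 to 1 in the memory-precursor (0.0274% to 0.490%) and 0 to 1 in the monocyte and macrophage-like clusters (0.0913% to 1.17%). Each genotype fit without a library left 1 library in a genotype, so its spread came from the other genotype alone. The counts of these fits are a description. At resolution 0.4 the unnamed clusters had 1 member called lower (0.0571% of all genes). Within-class fits of the interferon-stimulated-like and terminal effector-like clusters were not run at that resolution, as a library lacked the class. With 30 principal components, added for these fits after the data were seen, the members called lower came to 0 in the interferon-stimulated-like and 1 in the unnamed clusters. Without thinning, the cells with a UMI of a member came to 83.9% in WT and 81.7% in Bcl3-/-.

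The chimera difference of Gbp6, near 0, turned positive with total-count scaling (0.051), after thinning (0.063) and without the genotype term (0.090). Without each library in turn it ranged from -1.24 to 0.98, and differences ranged from -0.032 to 0.51 for Gbp5, -0.15 to 0.17 for Gbp3, -0.060 to 0.32 for Gbp2, -0.090 to 0.38 for Gbp8, -0.082 to 0.54 for Gbp4, -0.033 to 0.81 for Irgm1 and -0.24 to 0.56 for Igtp. In these fits the genotype term was dropped and a chimera was left with a single genotype. Any difference between genotypes is therefore mixed into these ranges, which do not measure the chimera difference alone. The adjusted p of Gbp9 ranged from 0.00239 to 1.00 over its alternatives.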

Other observations

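In CD8 T cluster cells thinned to 1000 UMIs, the summed members stood at 1028 CPM in the 250 WT1 cells with an Ifng UMI and 781 CPM in the 4355 without, and at 1073 CPM (464 cells) and 1009 CPM (7042 cells) in WT2. In KO1 they stood at 715 CPM (242 cells) and 575 CPM (4723 cells), and in KO2 at 649 CPM (373 cells) and 677 CPM (5673 cells), so KO2 alone had the lower level in cells with an Ifng UMI.

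Around Gbp6 on chromosome 5, the nearest tested genes outside the GBP family had differences between genotypes over all cells that were smaller in size than that of Gbp6. Lrrc8b, 122077 bases away, had a log2 difference of 0.05 ± 0.40 (SE), Lrrc8c, 225690 bases away, of 0.23 ± 0.09 and Abcg3, 287984 bases away, of 0.40 ± 0.17. These genes were chosen after their values were seen.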
